A study of Schizosaccharomyces pombe with 2 samples.

Results

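The genes described here are the coding genes in the outermost 100 kb of both ends of chromosomes 1 and 2 of the fission yeast *Schizosaccharomyces pombe*. They were chosen by position and by an alias rule. A gene was a member when its whole coding span, listed in the deposited genome annotation, lay within 100 kb of the end of the assembled chromosome. Genes with a mug, meu, rpl, or rps alias (meiotically upregulated or ribosomal protein genes) were left out at the ends and in the rest of the genome. This left 136 of the 5155 coding genes listed on the 3 chromosomes. The left end of chromosome 1 (1L) held 37 of them, its right end (1R) 33, the left end of chromosome 2 (2L) 36, and its right end (2R) 30. The alias rule removed a single gene from the ends, the predicted esterase mug180+ (SPBPB2B2.02, chromosome 2, 4460559 to 4461704), and the rest of the genome kept 4749 genes.

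The annotation was deposited with 2 sequencing libraries of chromatin immunoprecipitated with an antibody against H3K9me2, histone H3 dimethylated at lysine 9. Both were replicates of the same group, cells labelled Swi6D, in which swi6+ is deleted (swi6Δ), grown in YES medium. None of the 33839 annotation lines held a score, so the values below are positions and counts of features, not H3K9me2 levels, and they do not compare the libraries. No library of swi6+ or of clr4Δ cells was analysed here.

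In fission yeast, heterochromatin forms next to the telomeres as well as at centromeres and at the silent mating-type locus. The methyltransferase Clr4 methylates H3K9 there, and the HP1 protein Swi6 binds the mark through its chromodomain and forms dimers. The outermost genes include tlh1+ and tlh2+, which encode RecQ-type helicases and carry sequence related to the pericentromeric repeats, and farther inward lie many genes for transporters and for enzymes that yeast cells use under changing nutrient supply.

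The first 30 coding bases of a few members are printed here to show how alike the genes of a set begin, at several ends or within 1 end. All are on the ASM294v3 assembly, read 5′ to 3′ on the coding strand, and capitals mark bases that differ from the most common base of the set. The first set is the DUF999 family, which is found only in S. pombe and has no known function. SPAC212.04c (1L, chr1:21587-21616, plus strand) begins with the same bases as SPAC212.01c, SPAC750.06c, SPBC1348.01, SPBCPT2R1.01c, and SPBCPT2R1.04c. SPBPB2B2.07c (2R, chr2:4474902-4474931, minus strand) differs from them at 3 of the 30 bases. SPAC977.06 (1L, chr1:39431-39460, plus strand) differs at 21 and begins with the same bases as SPBC1348.07 and SPBPB2B2.14c. The 10 genes therefore had 3 different beginnings, the most common of which occurs at all 4 ends. A shared beginning did not mean the same protein. That of SPAC212.04c was 71.8 to 74.3% identical to those of the other genes with its beginning.
SPAC212.04c: atgtcaaatccagaaagcttgaaaaaacag
SPBPB2B2.07c: atgtcaaatccagaaagcGCAaaaaaacag
SPAC977.06: atgGTaaGAGATACTCgTAATGTGGaCcTg

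In the other sets every copy begins alike, so no base is in capitals. They are the helicase genes tlh1+ (SPAC212.11, chr1:5633-5662, minus strand) and tlh2+ (SPBCPT2R1.08c, chr2:4526885-4526914, plus strand), and a tandem array of predicted membrane transporters at 2L whose outermost gene is SPBPB10D8.04c (chr2:92834-92863, minus strand).
tlh1 and tlh2: atggtcgtcgcttcagaaattgctaaagtc
SPBPB10D8.04c: atgtcttggttttacagatttttcattcgc

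The ends held fewer coding genes than the rest of the genome and far less coding sequence. At 37, 33, 36, and 30 genes (1L, 1R, 2L, 2R) they averaged 34 genes per 100 kb, against 39.0 in the rest. The alias rule lowers the values of the rest and its windows more than those of the ends. With the mug, meu, rpl, and rps genes kept, the densities were 34.25 and 41.2. The 120 other windows of 100 kb held 20 to 49 genes with a median of 39, so all 4 ends lay within the range of the rest. Coding sequence covered 37.4, 34.4, 37.5, and 33.2% of the bases, against 56.0% in the rest and a median of 55.7% over the windows. Of these windows, 5 had a lower value than 1L and 2L, and 2 had a lower value than 1R and 2R. The 2 windows below every end were bases 1600001 to 1700000 of chromosome 2 (24.9%) and the left end of chromosome 3 (29.6%). Leaving out genes with a pseudo tag, the median coding length was 936 bp at the ends and 1173 bp in the rest. By end it was 790.5, 993, 1053, and 826.5 bp, and 2, 16, 29, and 2 of the 120 windows had a lower median. Genes at the ends also lay farther apart. The median distance from a coding gene to the next was 1398 bp at the ends, from 1229 bp at 1L to 1867.5 bp at 1R, and 670 bp in the rest. The longest coding-free stretch among the members, 6758 bp, separated SPAC977.17, a predicted water channel, from the orphan SPAPJ695.02 at 1L. Members showed no common orientation, since 62 of 136 (45.6%) were transcribed toward the chromosome end. All of these values are counts over a whole annotation, so they carry no replicate error and no test was made. The spread over windows stands in its place.

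**Figure D1:**
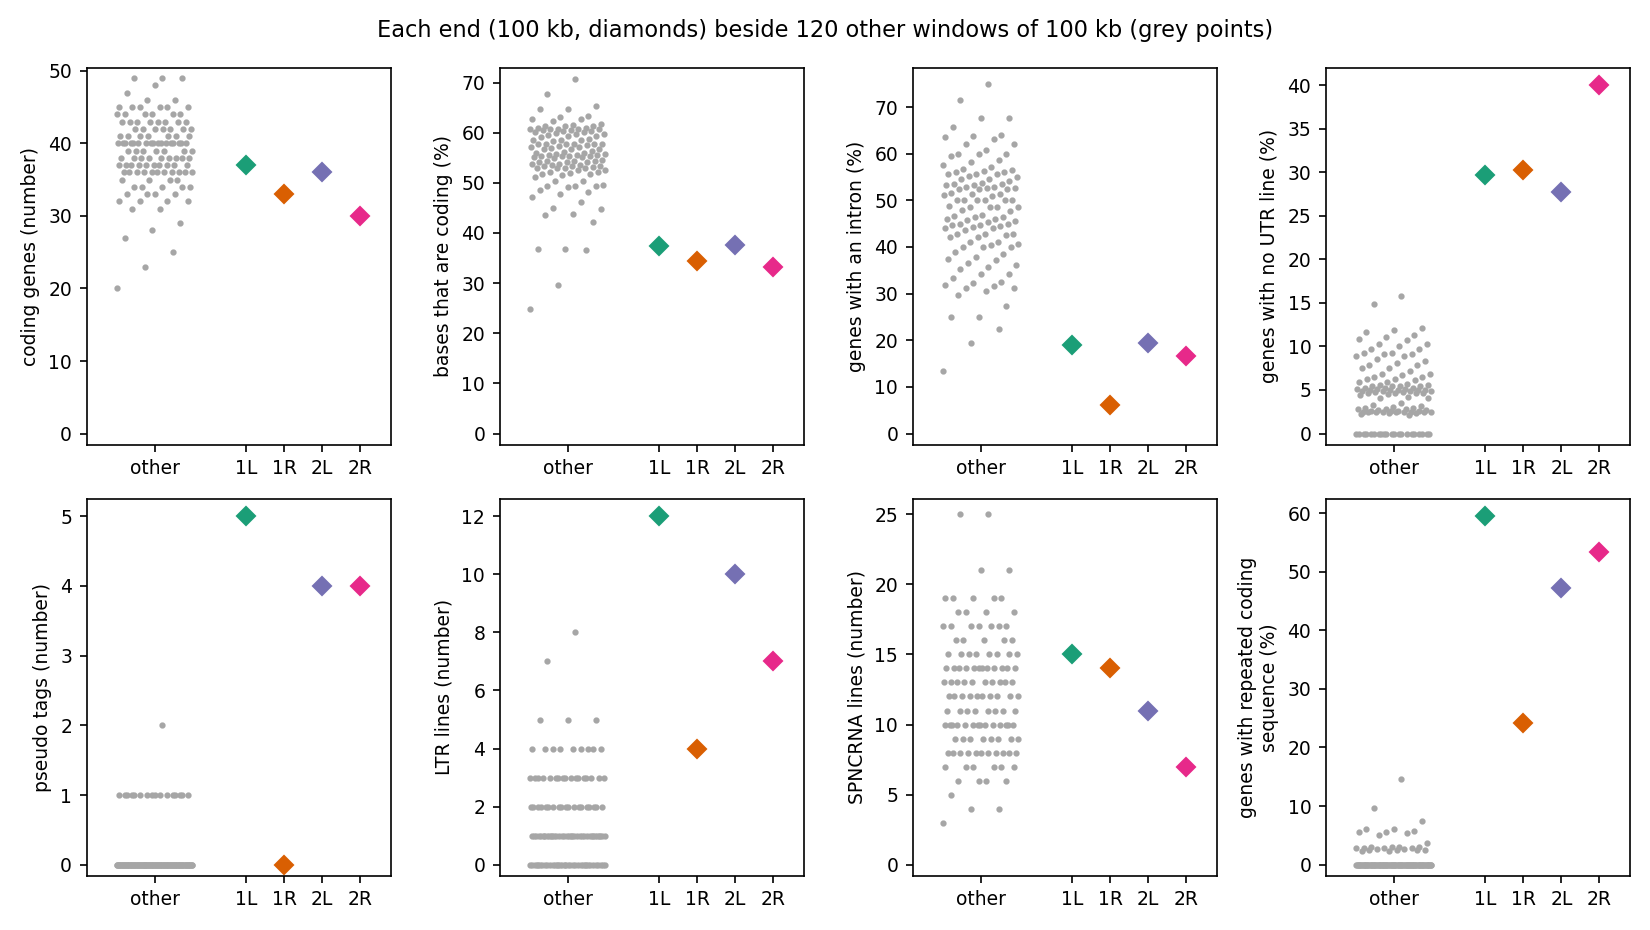
Values of the 4 chromosome ends (coloured diamonds, 100 kb each) and of 120 other windows of 100 kb (grey points, spread sideways only for visibility), for 8 features given as numbers per window or as percent of genes or bases on linear axes. The ends lie above all windows for genes without a UTR line (27.8 to 40%) and for repeated coding sequence (24.2 to 59.5%), but inside the range of the windows for coding genes and SPNCRNA lines.

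Few genes at the ends had introns. An intron was listed in 21 of the 136 members (15.4%) and in 2239 of the 4749 other genes (47.1%). By end the counts were 7, 2, 7, and 5 genes, or 18.9, 6.06, 19.4, and 16.7%. The windows ranged from 13.3 to 75% with a median of 48.5%, and a single window lay below 1L, 2L, and 2R, whereas 1R lay below all windows. The 29 introns of the members amounted to 0.213 per gene, against 1.02 in the rest. They were 34 to 249 bp long with a median of 58 bp, close to the 55 bp of the rest, and all 29 began with GT and ended with AG.

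The intron-containing members were largely copies of the same genes. The 10 DUF999 genes account for 10 of the 21, each with a single intron of 34 to 58 bp. The phospholipase genes SPAC977.09c (1L) and SPBC1348.10c (2L) are further copies of each other, each with an intron of 64 bp. The member with the most introns, 4, was SPBC1348.12 at 2L, which encodes a zinc finger protein. SPBPB2B2.18, an orphan at 2R, had 3, and SPAC977.18 (1L), grt1+ (SPBPB8B6.04c, a predicted transcription factor at 2L), and SPBPB21E7.11 (an orphan at 2L) had 2 each. At 1R the only intron besides that of the DUF999 gene SPAC750.06c was the 136 bp intron of SPAC186.08c, a predicted L-lactate dehydrogenase. Among members with a known cellular role, sod2+ (SPAC977.10), which encodes the sodium/proton antiporter of the plasma membrane, had an intron of 77 bp.

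Many members had no annotated untranslated region (UTR). Neither a 5′ nor a 3′ UTR line was listed for 43 members (31.6%), against 232 genes (4.89%) in the rest. By end the shares were 29.7, 30.3, 27.8, and 40%. No window of the rest exceeded 15.8%. Leaving out genes with a pseudo tag, 31 of 123 members (25.2%) and 4.59% of the rest had no UTR line. By end this gave 18.8, 30.3, 21.9, and 30.8%, lower at 1L and 2L than at 1R and 2R. At 1R, which has no pseudogene, the genes without a UTR line included SPAC186.07c (a predicted hydroxyacid dehydrogenase), SPAC186.08c, and SPAC186.09 (a predicted pyruvate decarboxylase), which are neighbours, and the formamidase-like gene SPAC869.04. A further 19 members had a UTR line on only one side. The UTR lines of members and of other genes came largely from the same published source in the file, in 83.2 and 83.9% of the lines.

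Pseudogenes were concentrated at 3 of the 4 ends. A pseudo tag was listed for 5 members at 1L, 4 at 2L, 4 at 2R, and none at 1R, together 13 of 136 (9.56%), against 19 of 4749 (0.40%) in the rest, where no window held more than 2. RefSeq lists the same 13 as pseudogenes. At 1L they were SPAC212.10 (a malic acid transport protein), SPAC212.09c, SPAC212.07c, SPAC212.05c, and SPAC977.13c (a hydrolase). At 2R they were SPBCPT2R1.10, SPBCPT2R1.07c (a malic enzyme), SPBCPT2R1.06c, and SPBCPT2R1.05c, all within 25 kb of the end. These 4 and the 1L pseudogenes SPAC212.10, SPAC212.09c, and SPAC212.05c were repeated sequence at 90.4 to 100% of their positions. By contrast, the 4 pseudogenes at 2L, SPBC1348.11 (a membrane transporter), SPBPB21E7.06, SPBPB21E7.08, and SPBPB10D8.03 (a transporter), had no repeated position, and nor had SPAC212.07c and SPAC977.13c.

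**Figure D2:**
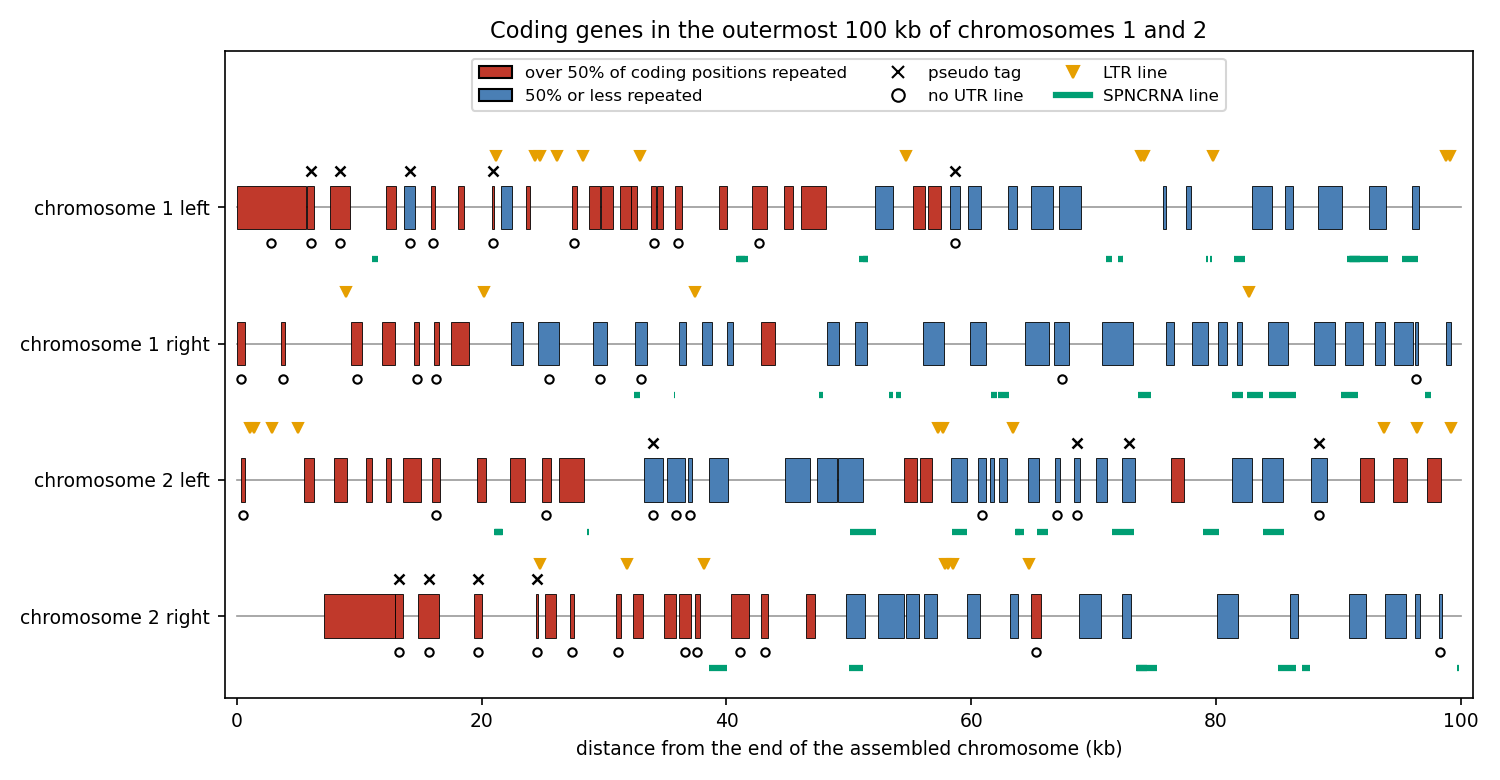
Map of the 136 members at the 4 ends, drawn to scale by distance from the end of the assembled chromosome in kb. Boxes are coding spans, red where over 50% of the coding positions are repeated and blue otherwise, crosses mark pseudo tags, open circles genes without a UTR line, triangles LTR lines, and green bars SPNCRNA lines. Red boxes fill the outermost 20 kb apart from SPAC212.07c, and few lie beyond 60 kb.

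Long terminal repeats (LTRs), the remnants left by Tf retrotransposons, were dense at the ends. The file lists 12 at 1L, 4 at 1R, 10 at 2L, and 7 at 2R, which gives 8.25 per 100 kb against 1.68 in the rest. Windows of the rest held 0 to 8 LTRs with a median of 1, so 1L and 2L exceeded all 120 windows, 2R exceeded 118, and 1R exceeded 106. Of the 33 LTRs, 16 were annotated as Tf2 type, 11 as Tf1 type, and 6 without a type. In the rest the counts were 57, 45, and 102 of 204. Tf2 type was thus listed more often than Tf1 type in both, and the difference lay in the lines without a type.

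The density of noncoding RNAs at the ends depended on the annotation and on the distance from the end. The deposited file lists 15, 14, 11, and 7 SPNCRNA lines at 1L, 1R, 2L, and 2R, or 11.75 per 100 kb against 12.5 in the rest, all within the range of the windows (3 to 25). They were unevenly placed. In steps of 20 kb from the end inward, the 4 ends together held 1, 6, 10, 16, and 14. The only line in the outermost 20 kb was SPNCRNA.70 at 1L (11027 to 11556, minus strand). The RefSeq annotation of the same sequence lists 231 long noncoding RNA genes in these stretches, 57 of them in the outermost 20 kb, and 25, 40, 59, and 50 in the following steps. Its density was 57.75 per 100 kb at the ends and 56.7 in the rest. The scarcity of noncoding RNAs next to the ends in the deposited file was therefore not found in RefSeq.

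An SPNCRNA line on the opposite strand overlapped the coding span of 13 members (9.56%; 2, 4, 5, and 2 by end), against 743 genes (15.6%) in the rest. At 1L these were the predicted hydrolase SPAC1F8.04c (SPNCRNA.605) and isp3+ (SPAC1F8.05, SPNCRNA.606). At 1R they were SPAC922.07c, a predicted aldehyde dehydrogenase, put4+ (SPAC869.10c), a predicted proline permease, SPAC869.09, and SPAC186.07c. At 2L they included grt1+, eno102+ (SPBPB21E7.01c), a predicted enolase, SPBPB21E7.04c, and the pseudogene SPBPB21E7.08. At 2R they were SPBP4G3.03, which is related to a proteasome regulator, and the galactokinase gene gal1+ (SPBPB2B2.13), opposite SPNCRNA.1697. All 13 genes had unique or mostly unique sequence. Thus 0 of 63 repeated and 13 of 73 other members (17.8%, against 15.6% in the rest) lay opposite such an RNA. Of the 63, however, 24 lay within 20 kb of the end and 23 from 20 to 40 kb, steps with 1 and 6 SPNCRNA lines. Overlap with RefSeq noncoding RNAs was not counted.

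**Figure D3:**
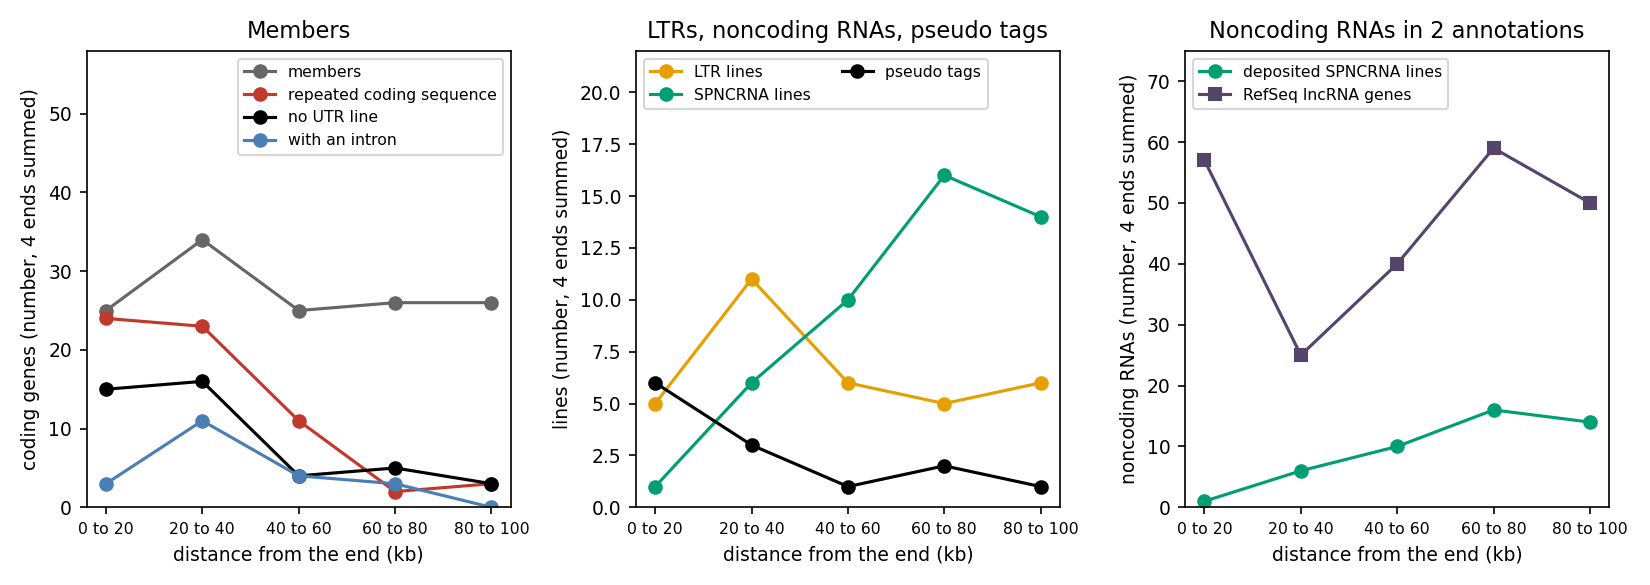
Numbers summed over the 4 ends in steps of 20 kb from the chromosome end (horizontal axes, kb), for members and their features (left), for LTR lines, SPNCRNA lines, and pseudo tags (middle), and for noncoding RNAs in the deposited and RefSeq annotations (right). Repeated members fall from 24 of 25 in the first step to 3 of 26 in the last, whereas SPNCRNA lines go from 1 to 14.

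Nearly as many members were repeated as unique. Here a gene counts as repeated if the 50 bases that start at a coding position are found a further time in the nuclear or mitochondrial genome, on either strand, for more than 50% of its coding positions. This was so for 63 of 136 members (46.3%) and for 48 of 4749 other genes (1.01%). The values by end were 22 (59.5%), 8 (24.2%), 17 (47.2%), and 16 (53.3%), and no window of the rest exceeded 14.7%. Most genes were of one kind or the other, as 67 members had no repeated position, 30 were repeated at every position, and 6 lay above 0 but not over 50%. For 60 of the 63 repeated members, over 50% of the positions recurred at another of the 4 ends. The 3 exceptions were the tandem transporter genes SPBPB10D8.04c, SPBPB10D8.05c, and SPBPB10D8.06c at 2L. A read of 50 bases that falls in such positions cannot be placed at a single site. The sources used here do not say how the authors treated such reads.

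Repeated sequence and missing UTR lines declined inward together. Of the members in successive steps of 20 kb, 24 of 25, 23 of 34, 11 of 25, 2 of 26, and 3 of 26 were repeated, and 15, 16, 4, 5, and 3 had no UTR line. The only member of the outermost step without repeated sequence was the pseudogene SPAC212.07c. Among members without a pseudo tag, 21 of 56 repeated genes (37.5%) and 10 of 67 other genes (14.9%) had no UTR line. The same values in the rest of the genome were 9 of 44 (20.5%) and 208 of 4686 (4.44%). Both repeated and unique members thus lacked UTR lines more often than their counterparts elsewhere in this annotation. How repeated sequence and the missing lines are related was not tested.

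The features ended at different distances when the counts were continued inward, an extension chosen after seeing the data. Repeated coding sequence was found in 54 of 70 genes from 0 to 50 kb, 9 of 66 from 50 to 100 kb, 3 of 66 from 100 to 150 kb, and 0 of 85 from 150 to 200 kb. Genes without a UTR line went from 48.6% to 13.6, 3.03, and 3.53% over the same steps. Introns behaved differently. The share of genes with an intron was 22.9% in the outermost 50 kb, 7.58% from 50 to 100 kb, 12.1% from 100 to 150 kb, and 40% from 150 to 200 kb, so the lowest shares lay from 50 to 150 kb, inward of most repeated genes. LTR lines numbered 16, 17, 9, and 0, and SPNCRNA lines 10, 37, 48, and 30. Coding sequence covered 34.5, 36.7, 48.0, and 58.5% of the bases.

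The assembled ends share long identical stretches, and these show that they stop at different places in the shared sequence. The outermost 5359 bp of 1L were identical to a stretch of 2R that lies 7258 bp inside the right end of chromosome 2. The outermost 4083 bp of 1R were identical to a stretch that lies 15844 bp inside 2R, and the outermost 10149 bp of 2L to a stretch 26881 bp inside 2R. The last of these was the longest identical stretch between any pair of ends. It holds SPBC1348.15, SPBC1348.01, and SPBC1348.02 at 2L and their counterparts SPBCPT2R1.03, SPBCPT2R1.01c, and SPBPB2B2.19c at 2R, as well as the orphan SPBCPT2R1.02, for which 2L has no listed counterpart. A distance from the end in this annotation is thus a distance from the last assembled base, and genes at the same distance from 2 ends need not correspond. The longest stretch shared by 1L and 2L, 5931 bp, lay farther inside at both ends (43345 and 23557 bp) and holds a short chain dehydrogenase gene and a phospholipase gene at each (SPAC977.08 and SPAC977.09c, SPBC1348.09 and SPBC1348.10c). The longest stretches between 1L and 1R and between 1R and 2L were 1525 and 1832 bp.

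The helicase genes lay outermost. tlh1+ occupied bases 1 to 5662 of chromosome 1 on the minus strand, and tlh2+ bases 4526885 to 4532644 of chromosome 2 on the plus strand, 7160 bp from the end. The coding sequence of tlh1+ is cut off by the end of the chromosome at 5662 bp, against 5760 bp for tlh2+, and the 1887 residues it encodes were identical to the corresponding residues of tlh2+, which encodes 1919. The product text of tlh2+ itself reads Tlh1. No UTR line was listed for tlh1+ and only a 3′ line for tlh2+. The file describes both genes, and no other coding gene counted here, as repressed by Chp1, Rik1, and Taz1. Chp1 is a chromodomain protein of the RITS complex, Rik1 a subunit of the Clr4 complex, and Taz1 the protein that binds telomeric DNA. The third helicase entry, SPAC212.06c at 1L (18072 to 18557), is annotated as truncated, had an intron of 42 bp, and was 59.5% repeated, with copies at the same end and at 2R.

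Proteins of the members formed 20 families, of which 18 had members at more than 1 end. Families were built from pairs with at least 50% identical residues over at least 80% of both proteins, and 59 of the 123 members without a pseudo tag belonged to one. There were 80 such pairs, 67 of them between different ends, and 50 pairs were at least 90% identical. A paralog of at least 50% identity anywhere in the genome was found for 72 of 123 members (58.5%) and for 6.45% of other genes. The most similar protein was encoded at another of the 4 ends for 50 of the 72, at the same end for 5, at an end of chromosome 3 for 1, and in the rest of the genome for 16.

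The DUF999 family was the largest, with 3 genes at 1L, 1 at 1R, 2 at 2L, and 4 at 2R. Its 45 pairs ranged from 60.4 to 100% identity with a median of 74.3%. SPAC212.01c (1L) and SPBCPT2R1.04c (2R) encoded identical proteins of 280 residues, as did SPBC1348.01 (2L) and SPBCPT2R1.01c (2R) with 269. Genes annotated as S. pombe-specific 5Tm proteins fell into 2 families, a longer and a shorter one, each with 1 member at each of the 4 ends. The longer proteins were 99.7 to 100% identical (SPAC977.01, SPAC750.05c, SPBC1348.02, SPBPB2B2.19c), and the shorter ones 98.6 to 100% (SPAC977.02, SPAC750.04c, SPBC1348.03, SPBPB2B2.17c). Every comparison of a longer with a shorter protein gave 23.0% identity over 139 aligned residues. The GPI-anchored family had a copy at 1L (SPAC212.12) and at 1R (SPAC750.07c), and their coding sequences were the same.

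**Figure D4:**
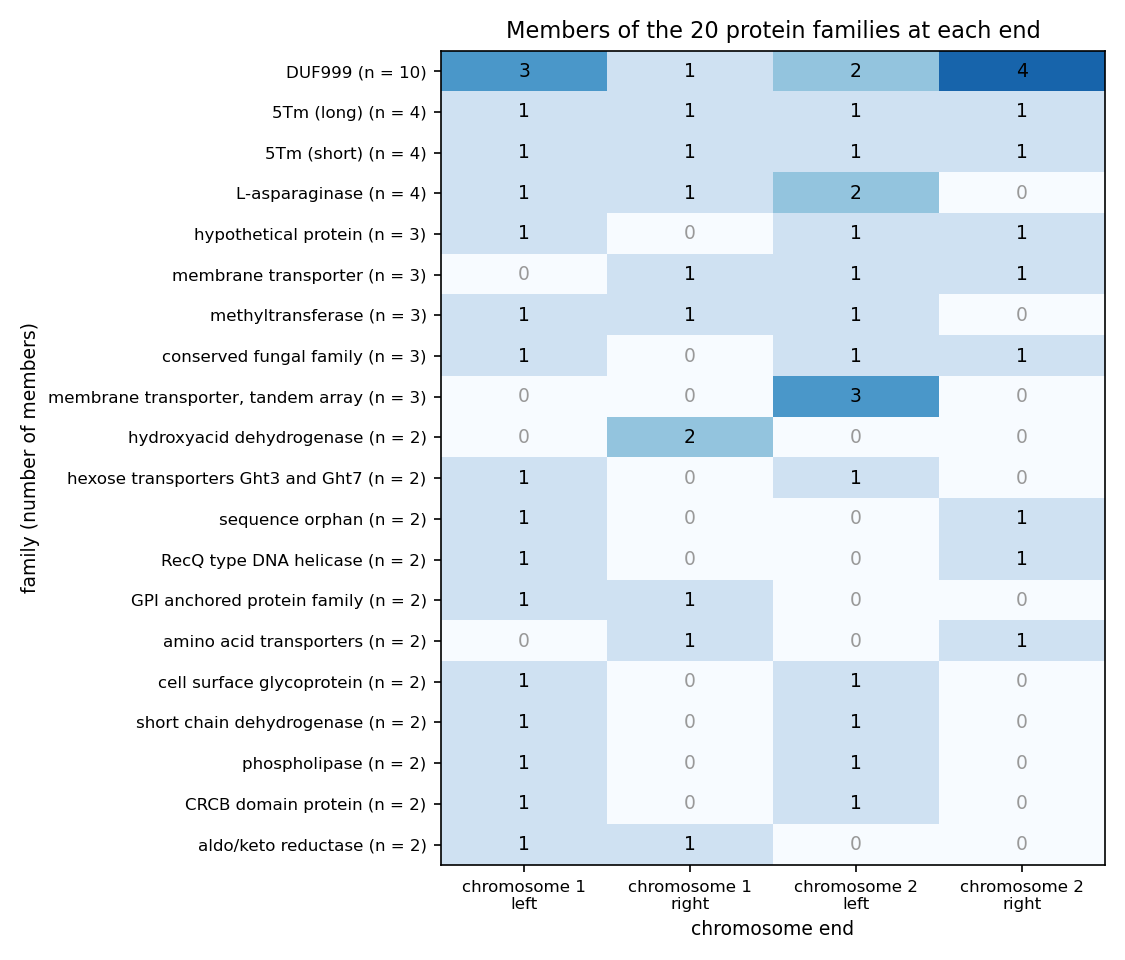
Number of members of each of the 20 protein families (rows, with the size of the family) at each chromosome end (columns), darker for more members. The DUF999 family has 3, 1, 2, and 4 genes at 1L, 1R, 2L, and 2R, both 5Tm families have 1 at every end, and only the tandem transporter array and the hydroxyacid dehydrogenases are limited to 1 end.

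Several families encode enzymes and transporters rather than proteins without known function. A predicted methyltransferase was present at 1L (SPAC977.03), 1R (SPAC750.03c), and 2L (SPBC1348.04) with 98.6 to 99.3% identity. The file marks these 3 genes, together with the peptidase-family gene SPBPB2B2.05 at 2R, as possibly acquired by horizontal transfer, a label that 9 genes in the rest carry. Every position of SPBC1348.04 also recurred at 2R, where no methyltransferase gene is listed. A membrane transporter, described for its 2R copy as belonging to the major facilitator superfamily, was encoded at 1R (SPAC750.02c), 2L (SPBC1348.05), and 2R (SPBPB2B2.16c), with 99.8 to 100% identity. At 1L the corresponding entry, SPAC977.04, is listed as a truncated C-terminal region, and every position of it recurred at 1R and 2R. The predicted cell surface glycoproteins SPAC977.07c (1L) and SPBC1348.08c (2L) had identical proteins of 416 residues, and the phospholipases SPAC977.09c and SPBC1348.10c identical proteins of 673. The L-asparaginases, which release ammonia from asparagine, formed 2 close pairs, SPAC977.12 with SPBPB8B6.05c (99.7%) and SPAC186.03 with SPBPB21E7.09 (98.6%), whereas identity between the pairs was 69.9 to 70.8%. The conserved fungal family gene SPBC1348.06c (2L) had the same coding sequence as SPBPB2B2.15 (2R), and SPAC977.05c (1L) was 98.5% identical to both.

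A pair of neighbouring genes was carried in opposite orientation at 2 ends. The CRCB-domain gene SPAC977.11 and the L-asparaginase gene SPAC977.12 lie 282 bp apart at 1L, on the plus strand. At 2L their copies SPBPB8B6.06c and SPBPB8B6.05c are also 282 bp apart, on the minus strand, so that the asparaginase is the outer gene. The CRCB-domain proteins were identical over 311 residues. All 4 genes had a 5′ and a 3′ UTR line.

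The tandem array at 2L crosses the 100 kb limit. SPBPB10D8.04c, SPBPB10D8.05c, and SPBPB10D8.06c start 2759 bp apart, at 91724, 94483, and 97242, and the next copy, SPBPB10D8.07c, starts a further 2759 bp on, on the first base outside the limit. All 4 coding sequences of 1140 bp were identical. Over the whole unit of 2759 bp, neighbouring copies differed at 0, 0, and 63 bases. The LTR lines at the inner end of 2L lie between these genes. Elsewhere the members next to the limit were isp3+ inside and fta5+ (SPAC1F8.06, 100011 to 101168), a cell surface glycoprotein gene, outside at 1L. At 1R they were SPAC922.04 inside and SPAC922.03, a predicted deaminase, outside, and at 2R ecl3+ (SPBC8E4.12c) inside and SPBC8E4.03, a predicted agmatinase, outside. The genes on both sides of the limit at 1L, 1R, and 2R had no repeated position.

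By product description, transporters and uncharacterized proteins took larger shares of the members than of other genes. Transporters and permeases made up 22 of 123 members (17.9%) against 3.89% of the rest, and uncharacterized families 42 (34.1%) against 9.58%. Each copy of a gene was counted. The 22 thus include the 3 identical tandem genes at 2L and 3 copies of 1 transporter that are 99.8 to 100% identical. Oxidoreductases made up 8.94% against 4.50%, hydrolases 11.4% against 6.09%, and cell surface glycoproteins 2.44% against 0.529%. Transcription factors were the exception, with 2 members (1.63%, grt1+ and SPBC1348.12, both at 2L) against 3.07%. These groups differed in repeated sequence, as 29 of 42 uncharacterized genes were repeated but 7 of 22 transporters, 6 of 14 hydrolases, and 2 of 11 oxidoreductases. The lists of words that assign a product to a class were chosen with earlier results of these data known.

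Members with a gene symbol and a known role lay mostly inward of the repeated copies. A symbol was listed for 20 members (14.7%) against 57.0% of the rest, and 3 of the 20 lay in the outermost 50 kb. The transporters with a symbol were sod2+, ght3+ (SPAC1F8.01) and ght7+ (SPBC1348.14c), which encode hexose transporters, str3+ (SPAC1F8.03c) for siderophore-bound iron, cat1+ (SPAC869.11) for cationic amino acids, and put4+. The proteins of ght3+ and ght7+ were 57.2% identical to each other, but each was closer to a hexose transporter encoded elsewhere, Ght4 (86.9%) and Ght5 (74.6%). pho1+ (SPBP4G3.02) encodes a secreted acid phosphatase and dak2+ (SPAC977.16c) a dihydroxyacetone kinase. All of these genes had a 5′ and a 3′ UTR line, and ght3+ was the only one with any repeated position (13.1%).

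The galactose genes were found together at 2R. gal7+ (SPBPB2B2.10c, 4482569 to 4483678), gal10+ (SPBPB2B2.12c, 4485277 to 4487418), and gal1+ (SPBPB2B2.13, 4488491 to 4490050) encode the enzymes that convert galactose for use in glycolysis. They lay 56126, 52386, and 49754 bp from the end, with the predicted dehydratase gene SPBPB2B2.11 between gal7+ and gal10+. Each had a 5′ and a 3′ UTR line, no intron, and no repeated position. The next member toward the end was the DUF999 gene SPBPB2B2.14c, 85.9% repeated, and a further DUF999 gene, SPBPB2B2.07c, 62.6% repeated, lay inward of the galactose genes, 64873 bp from the end. A further gene of galactoside use, mel1+ (SPAC869.07c), which encodes an alpha-galactosidase, lay at 1R, 78041 bp from the end.

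**Figure D5:**
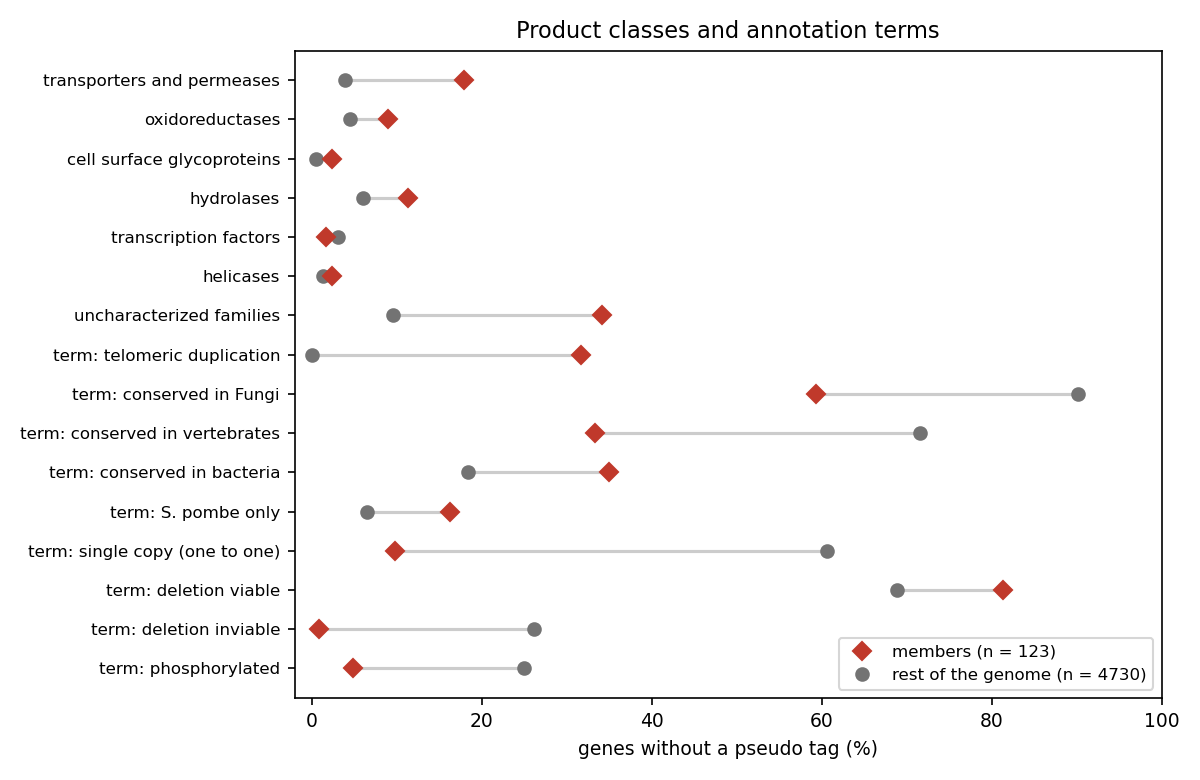
Percent of genes without a pseudo tag (horizontal axis) in each product class or with each annotation term, for the members (red diamonds, n = 123) and for the rest of the genome (grey circles, n = 4730). Members exceed the rest for transporters (17.9 and 3.89%) and for the telomeric duplication term (31.7 and 0.0423%), and lie below it for conservation in fungi (59.3 and 90.2%) and for inviable deletions (0.813 and 26.2%).

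The annotation terms of the file separate the members from other genes in conservation and in deletion phenotype. A term for telomeric duplication was listed for 39 members (31.7%) and for 2 genes in the rest. It was assigned largely to repeated genes, 37 of 63 against 2 of 73 others, and so left out 26 repeated members, among them tlh1+ and tlh2+. Conservation in fungi was listed for 59.3% of members and 90.2% of the rest, and conservation in vertebrates for 33.3 and 71.5%. Conservation in bacteria had the opposite order, at 35.0 and 18.3%. Proteins identified in S. pombe only made up 16.3 and 6.45%, and genes that are single copy across species 9.76 and 60.6%. Deletion was described as viable for 100 members (81.3%) and as inviable for 1 (0.813%), against 68.8 and 26.2% in the rest. The single inviable entry was SPBC1348.06c, whose coding sequence is identical to that of SPBPB2B2.15 at another end. Phosphorylation was listed for 6 members (4.88%) and for 25.0% of other genes.

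The sequence behind 3 members ends at a break in the assembly. Of the 123 members without a pseudo tag, 120 had a whole reading frame on ASM294v3. The exceptions were tlh1+, cut at base 1 of chromosome 1, SPAC750.08c, a partial malic enzyme gene that runs to the last base of chromosome 1, and SPAC977.01, which begins at 29764, directly after a run of 100 undetermined bases (29664 to 29763). A second such run lies at 2L, at 80202 to 80301, between SPBPB21E7.09 and SPBPB10D8.01. The deposited file places a separate contig of 20000 bp there, with 17881 bp noted as the filling of that gap. It lists 5 coding genes on this contig, SPBC460.01c to SPBC460.05, which include an amino acid permease and a glutathione S-transferase, and no UTR line. These genes are not on chromosome 2 in the file and were not counted. Distances at 2L inward of the gap leave out this filling and are too short by nearly its length. With the filling in place, the coding spans of SPBPB10D8.01 to SPBPB10D8.06c would reach or lie beyond 100 kb. The same holds for the LTR lines of the tandem array. The values of 2L were not recounted without them. A single member, SPBC1348.13 at 2L, resembles a fragment of a protein of the mitochondrial cox1 intron. Of its positions 39.5% recurred, all of them in the mitochondrial genome, and its GC content of 22.9% was the lowest of all members, whose median was 38.1% against 39.6% in the rest.

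The ends of chromosome 3, counted with the rest of the genome, showed the same features in part. Its left and right 100 kb held 27 and 33 coding genes, of which 14.8 and 6.06% had no UTR line, 4 and 7 LTR lines, and 1 repeated gene each. The share of genes with an intron was 29.6 and 39.4%, above that of each of the 4 ends of chromosomes 1 and 2. Coding sequence covered 29.6 and 37.7% of the bases, so low coverage was not particular to chromosomes 1 and 2. A gene symbol was listed for 29.6 and 33.3% of the genes, against 57.0% in the rest.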

How the data were processed

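The libraries were made from immunoprecipitated chromatin of swi6Δ cells. Per the deposited file, its values are 1-based feature positions that the authors took from GeneDB, with the unit other, and they hold no depth or signal. Positions were read on the RefSeq ASM294v3 sequence, whose chromosome lengths are the same, and 134 of 136 members matched a RefSeq gene, all with the same bounds. Gaps of at least 20 bp between coding parts counted as introns. Proteins were translated with Biopython 1.88 and compared with global alignments, and with blastp 2.17.0 for paralogs. Scripts ran in Python 3.11.15 with numpy 2.4.6 and scipy 1.17.1, and figures were drawn with matplotlib 3.10.9. Repeat counts were tested on a simulated genome.

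Genes named are tlh1+, tlh2+, and the galactose genes, the first 5 members from each end, those next to the limit, pseudogenes, the 10 most similar pairs between ends, extremes of length and introns, up to 4 members of each product class, and members opposite an SPNCRNA line. Others were named after their values were seen. Members and lists were chosen with earlier results of these data known. Alternatives changed the distance, the alias rule, pseudogenes, the repeat definition, identity, and the comparison set. The first coding bases of a further family are not reported here.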

Additional observations from a re-analysis of the deposited data

How the results depend on the processing

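No paired analysis was possible because the file holds no value of either library. The results keep their direction against the rest of the genome under the alternatives run, except for SPNCRNA density. It was 11.75 per 100 kb, 5 within 50 kb, and 15.8 within 150 kb of the ends, where it exceeded the 12.3 of the rest, and 57.75 with RefSeq noncoding RNA genes in their place. Within 50 kb there were 70 members, of which 22.9% had an intron, 48.6% no UTR line, and 77.1% repeated coding sequence. Within 150 kb, 22.3% had no UTR line and 32.7% were repeated. Requiring every position to be repeated left 22.1% of members, and an identity of at least 90% left 50 of 80 pairs. Within 150 kb there were 202 members against 136 within 100 kb. Counting every gap between coding parts as an intron gave 19.1% of members. With RefSeq transcripts in place of UTR lines, 35 of 122 protein-coding genes at the ends (28.7%) had no UTR. In the rest it was 173 of 4991 (3.47%). These RefSeq counts leave out pseudogenes and, in the rest, keep the mug, meu, rpl, and rps genes. The nearest values of the deposited file, without pseudo tags, were 25.2 and 4.59%. These last settings and the RefSeq RNAs were chosen after seeing the data. Reads that fall wholly in repeated positions cannot be placed at a single site, but only 30 of the 63 repeated members were repeated at every position.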

Other observations

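Urea and amide genes lay next to each other at 2 ends. At 1R, the predicted urea transporter SPAC869.03c (661 residues) was 387 bp from the formamidase-like gene SPAC869.04, and at 2L the predicted urea transporter SPBPB8B6.02c (673 residues) was 596 bp from the predicted acetamidase SPBPB8B6.03. The transporters were 49.5% identical, just under the limit used for families. These genes were picked after their products were seen.

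Of the 40 members that lie inside stretches noted as duplicated in the file, 37 (92.5%) were repeated. Of the 96 members outside such stretches, 26 (27.1%) were repeated as well, among them tlh1+, tlh2+, and the run of 1L genes from SPAC977.01 to SPAC977.09c. The notes cover 24.1% of the bases of the 4 ends.

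The hexamer GGTTAC, searched on both strands, occurred 2, 0, 1, and 3 times in the outermost 5 kb of 1L, 1R, 2L, and 2R. Of 2512 windows of 5 kb, 72.0% held it at least once, with a median of 1.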
